A study of Mus musculus with 8 samples.

Results

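The 8 genes Maf, Rora, Ahr, Batf, Batf3, Irf4, Hif1a and Nfkbiz encode transcriptional regulators. All but Batf3 are known for their part in Th17 cells, the T helper subset that makes interleukin-17. Together the 8 genes were named as a set of Th17 transcription factors. Each was read by its only array probe set annotated with that symbol and no other. Thus 8 of the 19938 genes measured are described. Messenger RNA was measured in mouse Th17 and Th1 cells to ask what Tet2, a dioxygenase that converts 5-methylcytosine of DNA into oxidized forms, does in the differentiation of T helper subsets. There were 4 groups of 2 arrays: Tet2-deficient Th17 cells from CD2(Cre)Tet2(f/f) mice, wild-type Th17 cells from Tet2(f/f) mice, Tet2-deficient Th1 cells from CD2(Cre)Tet2(f/f) mice and wild-type Th1 cells from Tet2(f/f) mice. All groups therefore carry the floxed Tet2 alleles, the wild-type mice are not said to carry Cre, and the Cre is named for CD2, a gene expressed across the T cell lineage. The age of the mice and the culture times are not given in the sources used here. The titles call the arrays of a group biological replicates, but the labels do not tie arrays to single mice or cultures, so p-values measure the spread between these samples.

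Naive T cells that receive interleukin-6 and transforming growth factor beta signals become Th17 cells. Batf and Irf4 bind DNA together and open chromatin early, Rora acts as a nuclear receptor on cytokine genes, and Maf, Ahr, Hif1a and Nfkbiz adjust which cytokine and metabolic genes are expressed. Batf, Irf4 and Hif1a also act in Th1 and other activated T cells, so they are not markers of Th17 cells alone.

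The median log2 signal of an array lay between 6.53 and 6.61. The subset labels went with their markers: Il17a, Il17f, Il23r and Ccr6 were all called higher in Th17 than in Th1 cells of both genotypes, and 4 of 5 Th1 markers (Ifng, Tbx21, Il12rb2 and Hopx) were called lower. All 4 measured T cell markers lay above the array median on every array. Of 19 markers of other cell types, 15 lay under the array median on every array, and Cd8b1, Cd68, Klrd1 and Ly6g did not. Regulatory T cell markers were kept apart from these 19, and 1 of 4 was called higher in Th17 than in Th1 cells in each genotype. In Tet2-deficient cells this was Gpr83 (log2 fold change 0.77, limma adjusted p = 0.00229), while Foxp3 was not called (-0.12, limma adjusted p = 0.586). The summed neutrophil markers (3 genes) had a log2 level of 10.3 to 10.5 in Tet2-deficient Th17 cells, 9.28 to 9.69 in wild-type Th17 cells, 8.93 to 9.04 in Tet2-deficient Th1 cells and 8.78 to 8.92 in wild-type Th1 cells, with Ly6g the gene above the array median and the defining marker S100a8 under it on every array. The summed natural killer markers (3 genes) lay at 7.60 to 8.28 in Tet2-deficient Th17 cells, 6.88 to 6.97 in wild-type Th17 cells, 6.63 to 6.65 in Tet2-deficient Th1 cells and 6.62 to 6.74 in wild-type Th1 cells, with Ncr1 under the array median on every array. The share of RNA from female cells, scaled from the Xist signal, was 14.7% and 100% on the Tet2-deficient Th17 arrays. It was 0.187% and 42.9% on the wild-type Th17 arrays. The Th1 arrays lay between -0.130% and 0.105%, around a baseline set as their own mean signal. The Xist log2 signal itself was 4.80 to 5.07 on the Th1 arrays. It was 8.60 and 11.27 on the Tet2-deficient and 5.15 and 10.07 on the wild-type Th17 arrays. Subset and sex of the RNA therefore overlap in part, and the part of these markers in the results below was not tested unless a value says otherwise. In RNA from whole cultures, fewer cells of a type and less RNA per cell cannot be told apart. Tet2 read 8.34 and 8.39 in Tet2-deficient Th17 cells, 8.51 and 8.49 in wild-type Th17 cells, 8.12 and 7.98 in Tet2-deficient Th1 cells and 8.14 and 8.02 in wild-type Th1 cells, which checks nothing about the deletion because the position of these probes relative to the deletion is not given in the sources used here.

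Maf, Rora and Ahr were the members with more messenger RNA in Th17 than in Th1 cells, in both genotypes, and Batf3 was the member with less. Batf, Irf4, Hif1a and Nfkbiz were not called in either genotype. A gene was called when its limma p-value, after Benjamini-Hochberg adjustment across the 19938 genes, was under 0.05. In Tet2-deficient cells 3 of the 8 members were called higher and 1 lower, where 6.32% of all genes were called higher, 3.79% lower and 10.1% in either direction. The same counts held in wild-type cells, where 4.97% of all genes were called higher, 3.44% lower and 8.4% in either direction. Fold changes below are log2 values ± SE, and each group has n = 2 arrays, whose number limits the precision.

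**Figure D1:**
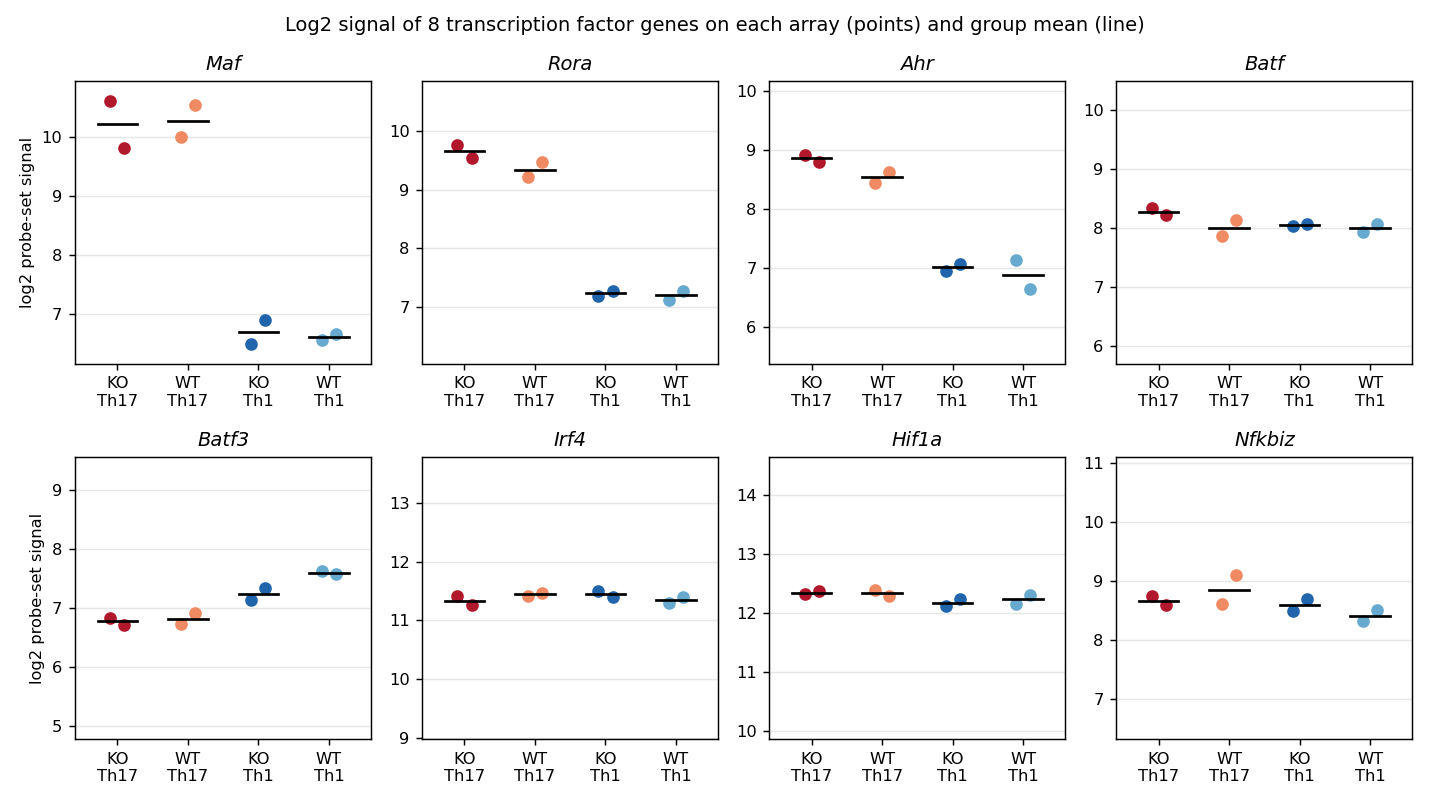
Log2 signal of each of the 8 genes on the 8 arrays, 1 panel a gene, with groups along the horizontal axis (KO, Tet2-deficient; WT, wild-type), points for arrays and short lines for group means. Maf, Rora and Ahr stand higher on every Th17 array than on any Th1 array, Batf3 stands lower, and the scale is not shared between probe sets.

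Maf encodes c-Maf, a basic leucine zipper factor that acts on Il21 and Il10. Its log2 signal was 10.62 and 9.81 in Tet2-deficient Th17 cells and 10.00 and 10.55 in wild-type Th17 cells, against 6.49 and 6.90 in Tet2-deficient Th1 cells and 6.55 and 6.65 in wild-type Th1 cells. The Th17 arrays did not overlap with the Th1 arrays, while the genotypes overlapped in both subsets. Maf was 11.5-fold higher in Tet2-deficient Th17 cells than in Tet2-deficient Th1 cells (log2 fold change 3.52 ± 0.24, limma adjusted p = 2.57e-06). In wild-type cells it was 12.8-fold higher (3.67 ± 0.24, limma adjusted p = 1.76e-06). By fold this placed Maf 5th of 19938 genes in Tet2-deficient and 4th in wild-type cells. The size and rank of the fold rest on Th1 signals near the array medians of 6.53 to 6.61, with Maf under the median on 2 Th1 arrays. Maf was also the member that differed most between replicates: its 2 Tet2-deficient Th17 arrays were 0.801 apart on the log2 scale, where the median gene was 0.110 apart. The subset fold in Tet2-deficient cells was 3.12 on the log2 scale without replicate 1 of the Th17 arrays and 3.92 without replicate 2, called both times.

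Rora encodes the nuclear receptor RORalpha. It read 9.76 and 9.53 in Tet2-deficient Th17 cells and 9.21 and 9.46 in wild-type Th17 cells, against 7.19 and 7.28 in Tet2-deficient Th1 cells and 7.12 and 7.28 in wild-type Th1 cells. Both Tet2-deficient Th17 arrays stood above both wild-type Th17 arrays, and the Th1 groups overlapped. Rora was 5.31-fold higher in Th17 than in Th1 cells that lacked Tet2 (2.41 ± 0.13, limma adjusted p = 4.44e-07) and 4.39-fold higher in wild-type cells (2.13 ± 0.13, limma adjusted p = 1.25e-06).

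Ahr encodes the aryl hydrocarbon receptor, which binds planar aromatic ligands and is needed for interleukin-22 in Th17 cells. It read 8.91 and 8.80 in Tet2-deficient Th17 cells and 8.45 and 8.63 in wild-type Th17 cells, against 6.95 and 7.06 in Tet2-deficient Th1 cells and 7.13 and 6.63 in wild-type Th1 cells. The Th17 groups did not overlap with each other or with the Th1 groups, and the Th1 groups overlapped. Ahr was 3.61-fold higher in Th17 than in Th1 cells without Tet2 (1.85 ± 0.15, limma adjusted p = 1.28e-05) and 3.15-fold higher in wild-type cells (1.66 ± 0.15, limma adjusted p = 3.60e-05). With the female RNA share as a covariate, the log2 fold changes of Maf, Rora and Ahr were 3.80, 2.46 and 1.86 in Tet2-deficient cells and 3.78, 2.15 and 1.66 in wild-type cells, all called.

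**Figure D2:**
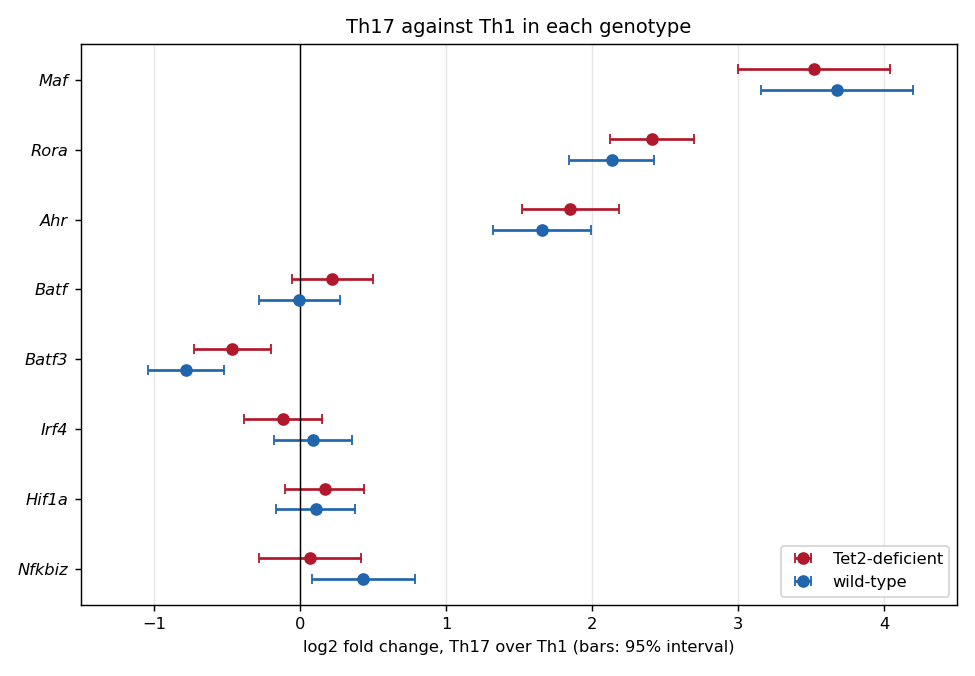
Log2 fold change, Th17 over Th1, of each member in Tet2-deficient and in wild-type cells, with 95% intervals. Maf, Rora and Ahr lie far right of 0 and Batf3 left of 0, while the intervals of Batf, Irf4 and Hif1a hold 0 in both genotypes.

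Batf and Batf3 are related basic leucine zipper proteins that pair with Jun proteins and bind composite sites with Irf4 or Irf8. Batf is required for Th17 differentiation in mice, and Batf3 is best known for dendritic cell development and is also expressed in Th1 cells. The 250 bases before the annotated start of Batf, Batf3 and Irf4 are shown because the proteins act together while, of the 3 genes, Batf3 was called between subsets and the others were not, and because the CG dinucleotide is the context in which Tet2 acts. RefSeq (GRCm38.p6) windows exist for 5 of the 8 members, and those of Rora and Hif1a lie inside the annotated gene and are given as counts. Capitals mark each CG, and all 3 sequences lie on the plus strand at chr12:85686470-85686719, chr1:191098164-191098413 and chr13:30748983-30749232 in the order given.
Batf: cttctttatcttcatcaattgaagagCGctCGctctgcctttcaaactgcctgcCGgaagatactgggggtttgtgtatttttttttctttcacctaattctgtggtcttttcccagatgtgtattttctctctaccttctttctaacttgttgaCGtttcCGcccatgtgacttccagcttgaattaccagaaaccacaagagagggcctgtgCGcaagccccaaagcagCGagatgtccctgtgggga
Batf3: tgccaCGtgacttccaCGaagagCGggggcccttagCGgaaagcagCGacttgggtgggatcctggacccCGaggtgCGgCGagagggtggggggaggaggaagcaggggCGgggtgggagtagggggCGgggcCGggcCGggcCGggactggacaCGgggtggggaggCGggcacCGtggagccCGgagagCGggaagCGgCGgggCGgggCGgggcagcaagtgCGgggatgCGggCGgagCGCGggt
Irf4: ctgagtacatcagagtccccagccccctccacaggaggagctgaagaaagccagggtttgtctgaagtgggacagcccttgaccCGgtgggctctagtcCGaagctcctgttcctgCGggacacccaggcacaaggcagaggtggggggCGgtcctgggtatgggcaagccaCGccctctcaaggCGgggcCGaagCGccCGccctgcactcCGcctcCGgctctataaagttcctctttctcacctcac

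The windows hold 7 CG dinucleotides for Batf, 27 for Batf3 and 11 for Irf4, beside 26 for Rora and 14 for Hif1a. The median of all 32851 windows of that length is 6, with quartiles of 2 and 16, and 91.4% of windows hold fewer than that of Batf3. Motif letters were searched on both strands. TGANTCA (AP-1, 6.75% of all windows), a pair of IRF cores (GAAA, any 2 bases, GAAA; 2.98%) and the composite of the AP-1 letters, any 4 bases and GAAA (0.0974%) were in none of the 5 windows. ACGTG, a core that HIF-1 recognizes (16.6% of windows), was present in that of Batf3 on both strands of an overlapping match that begins 247 bases before the start. It was also in Rora at 187 bases, and in Hif1a in an overlapping match at 135 bases and again at 70 bases. The overlapping matches are the palindrome CACGTG, which gives a match on each strand. GCGTG, a core that the Ahr dimer recognizes (28.2%), was present in Rora at 167 and in Irf4 at 80 bases before the start. AGGTCA, the core that ROR proteins recognize (14.0%), was in Hif1a at 97 bases. ACGTG and GCGTG are not each specific to the factor named. These matches describe letters only, and DNA methylation was not analysed here.

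Batf3 read 6.84 and 6.72 in Tet2-deficient Th17 cells and 6.73 and 6.91 in wild-type Th17 cells, against 7.13 and 7.34 in Tet2-deficient Th1 cells and 7.63 and 7.57 in wild-type Th1 cells. The Th17 groups overlapped and both lay below both Th1 groups, of which the wild-type one was the higher without overlap. Batf3 was 1.38-fold lower in Th17 than in Th1 cells lacking Tet2 (-0.46 ± 0.12, limma adjusted p = 0.0304) and 1.72-fold lower in wild-type cells (-0.78 ± 0.12, limma adjusted p = 0.00174). The call in Tet2-deficient cells ended with the female RNA share as a covariate (-0.44, adjusted p = 0.207), with a test over all probe sets (adjusted p = 0.108) and without any 1 of the 4 Tet2-deficient arrays. Without Th17 replicate 1 or 2 the Batf3 change was -0.52 (adjusted p = 0.0989) or -0.40 (0.177), and without Th1 replicate 1 or 2 it was -0.57 (0.0522) or -0.36 (0.188). The call in wild-type cells was made under all 19 alternatives.

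Batf read 8.34 and 8.22 in Tet2-deficient Th17 cells and 7.86 and 8.14 in wild-type Th17 cells, against 8.04 and 8.08 in Tet2-deficient Th1 cells and 7.93 and 8.08 in wild-type Th1 cells. The Tet2-deficient Th17 arrays were the highest of the 8, and the other 3 groups overlapped. The difference between Th17 and Th1 cells was 0.22 ± 0.13 in Tet2-deficient cells (95% interval -0.05 to 0.50, limma adjusted p = 0.313) and -0.0046 ± 0.13 in wild-type cells (-0.28 to 0.27, limma adjusted p = 0.988).

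Irf4, an interferon regulatory factor induced by T cell receptor signalling, varied little between arrays. It read 11.41 and 11.26 in Tet2-deficient Th17 cells and 11.41 and 11.47 in wild-type Th17 cells, against 11.50 and 11.40 in Tet2-deficient Th1 cells and 11.30 and 11.40 in wild-type Th1 cells. Both wild-type Th17 arrays lay above the Tet2-deficient Th17 and the wild-type Th1 arrays by a small margin, and the other groups overlapped. The difference between Th17 and Th1 cells was -0.12 ± 0.12 in Tet2-deficient cells (95% interval -0.38 to 0.15) and 0.09 ± 0.12 in wild-type cells (-0.18 to 0.36), with a limma adjusted p of 0.612 in Tet2-deficient and 0.699 in wild-type cells.

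Hif1a encodes the oxygen-regulated subunit of HIF-1, which is controlled mainly through protein stability. It read 12.31 and 12.37 in Tet2-deficient Th17 cells and 12.39 and 12.29 in wild-type Th17 cells, against 12.11 and 12.23 in Tet2-deficient Th1 cells and 12.15 and 12.31 in wild-type Th1 cells. Neighbouring groups in the order of the means overlapped throughout, as did the wild-type Th17 and wild-type Th1 groups. Both Tet2-deficient Th17 arrays lay above every Th1 array, the lower of them by a small margin. The differences between Th17 and Th1 cells, 0.17 ± 0.12 in Tet2-deficient cells (95% interval -0.10 to 0.44, limma adjusted p = 0.438) and 0.11 ± 0.12 in wild-type cells (-0.16 to 0.38, limma adjusted p = 0.636), did not pass.

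Nfkbiz encodes I-kappa-B-zeta, a nuclear partner of NF-kappaB that promotes Il17a expression with ROR receptors. It read 8.75 and 8.58 in Tet2-deficient Th17 cells and 8.60 and 9.09 in wild-type Th17 cells, against 8.50 and 8.70 in Tet2-deficient Th1 cells and 8.32 and 8.50 in wild-type Th1 cells. Neighbouring groups in the order of the means overlapped, among them the Tet2-deficient Th17 and Th1 groups. Both wild-type Th17 arrays lay above both wild-type Th1 arrays, and wild-type Th17 replicate 2 was the highest array. The difference between Th17 and Th1 cells was 0.07 ± 0.16 in Tet2-deficient cells (limma adjusted p = 0.839) and 0.43 ± 0.16 in wild-type cells (95% interval 0.09 to 0.78, unadjusted p = 0.0189, limma adjusted p = 0.118). It was called in wild-type cells under 1 alternative, without wild-type Th17 replicate 1 (0.68, adjusted p = 0.0339).

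Loss of Tet2 was called for no member in either subset. Across all genes, 0% were called between Tet2-deficient and wild-type Th17 cells and 0.00502% (1 gene, Ifng, lower) between Tet2-deficient and wild-type Th1 cells. Without adjustment, p was under 0.05 for 2 of 8 members in Th17 cells, where 4.13% of all genes met that level, and for 1 of 8 in Th1 cells, where 6.05% did.

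In Th17 cells the members with the highest values in Tet2-deficient over wild-type cells were Ahr, Rora and Batf, each with the Tet2-deficient arrays above the wild-type ones. The Ahr difference was 0.32 ± 0.15 (95% interval -0.01 to 0.65, unadjusted p = 0.0593). The Rora difference was 0.31 ± 0.13 (0.02 to 0.60, unadjusted p = 0.0375), and that of Batf was 0.28 ± 0.13 (0.0021 to 0.55, unadjusted p = 0.0485). None of these passed, since the limma adjusted p of every member was 0.99996. The intervals of the other members held 0, with Maf at -0.06 (-0.58 to 0.46), Batf3 at -0.04 (-0.31 to 0.22), Irf4 at -0.11 (-0.37 to 0.16), Hif1a at 0.0016 (-0.27 to 0.27) and Nfkbiz at -0.18 (-0.53 to 0.17). With the female RNA share as a covariate, Ahr, Rora and Batf were 0.32, 0.35 and 0.27. Ly6g (0.98, limma adjusted p = 0.229) and Klrd1 (1.25, limma adjusted p = 0.183), the neutrophil and natural killer markers above, also read higher in Tet2-deficient than in wild-type Th17 cells without passing. The other markers of those lists, all under the array median on every array, were S100a8 at -0.05, S100a9 at 0.03, Ncr1 at 0.27 and Klrb1c at 0.09, none passing, so the lists did not move as a whole, and the part of Ly6g and Klrd1 in these values was not tested.

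In Th1 cells Batf3 was lower on both Tet2-deficient arrays than on both wild-type arrays, by -0.36 ± 0.12 (95% interval -0.63 to -0.10, unadjusted p = 0.0106, limma adjusted p = 0.797). The other 7 members lay between -0.06 for Hif1a and 0.19 for Nfkbiz, with limma adjusted p from 0.904 to 0.983. Averaged over both subsets, no member passed, nor did any of all genes (0%), and Batf3 had -0.20 ± 0.09 (unadjusted p = 0.0337, limma adjusted p = 0.901). The effect of Tet2 loss did not differ between subsets past the threshold for any member, nor for any of all genes (0%). The Batf3 difference of effects, Th17 minus Th1, was 0.32 ± 0.17 (95% interval -0.05 to 0.69) and that of Nfkbiz was -0.37 ± 0.23 (-0.86 to 0.13), with a limma adjusted p of 0.999 for every member. For Maf the intervals ran from -0.58 to 0.46 in Th17 and from -0.43 to 0.61 in Th1 cells.

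**Figure D3:**
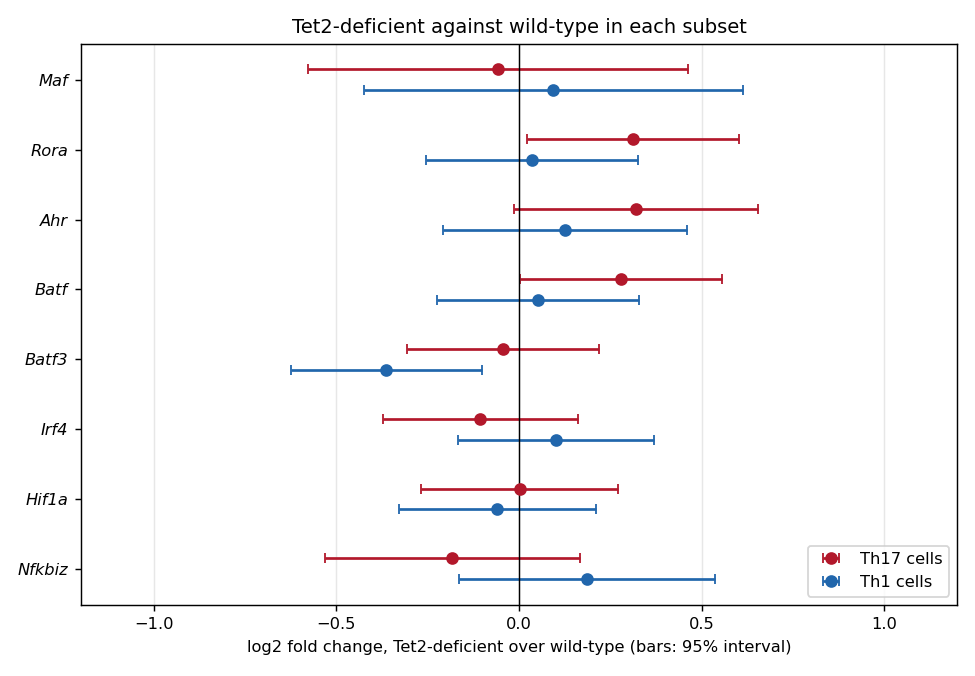
Log2 fold change, Tet2-deficient over wild-type, of each member in Th17 and in Th1 cells, with 95% intervals before adjustment. The intervals of Rora and Batf in Th17 cells and of Batf3 in Th1 cells leave out 0, and no member passed after adjustment over all genes.

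The partners and relatives of these factors were described by 10 gene lists for Th17 over Th1 cells, in log2 fold changes. The list counts stand beside 6.32% of all genes called higher and 3.79% lower in Tet2-deficient cells. In wild-type cells these shares were 4.97% and 3.44%. Of 21 other measured Th17 transcription factors, 5 were called higher and 2 lower in Tet2-deficient cells, and 7 higher and 2 lower in wild-type cells, with medians of 0.12 in Tet2-deficient and 0.14 in wild-type cells where the median of all genes was -0.03 in both. Ikzf3, which encodes Aiolos, had 1.39 ± 0.15 in Tet2-deficient and 1.68 ± 0.15 in wild-type cells, Id2, an inhibitor of E proteins, 1.21 ± 0.18 in Tet2-deficient and 1.01 ± 0.18 in wild-type cells, and Ets1 0.68 ± 0.13 in Tet2-deficient and 0.99 ± 0.13 in wild-type cells. Prdm1, the gene of the repressor Blimp-1, had -0.67 ± 0.11 in Tet2-deficient and -1.63 ± 0.11 in wild-type cells, and the orphan nuclear receptor gene Nr4a2 had -0.95 ± 0.17 in Tet2-deficient and -0.79 ± 0.17 in wild-type cells. Prdm1 lay under the array median on all 4 Th17 arrays. The count of higher calls in Tet2-deficient cells was 2 without Th17 replicate 1, 3 without Th1 replicate 1 and 3 with the female RNA share as a covariate, and that of lower calls was 1 without Th17 replicate 2, 1 with the covariate and 4 without either wild-type Th1 replicate. In wild-type cells the count of lower calls was 1 without Th17 replicate 2 or Th1 replicate 2.

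Among the 12 AP-1 proteins and Batf partners, 2 were called lower and 0 higher in both genotypes. These were Irf8, a partner of Batf and Batf3 (-2.00 ± 0.19 in Tet2-deficient and -2.00 ± 0.19 in wild-type cells), and the stress factor gene Atf3 (-2.19 ± 0.19 in Tet2-deficient and -1.55 ± 0.19 in wild-type cells). Of 7 other IRF genes, 2 were called lower in Tet2-deficient and 3 in wild-type cells, among them Irf8 again and Irf1 (-1.77 ± 0.19 in Tet2-deficient and -1.06 ± 0.19 in wild-type cells), a factor of the interferon response. Irf9 (-0.31 ± 0.13 in Tet2-deficient and -0.47 ± 0.13 in wild-type cells) was called in wild-type cells only at the margin, with a limma adjusted p of 0.0496 that rose above the threshold under 12 of the 19 alternatives. The median of the AP-1 list was -0.25 in Tet2-deficient and -0.17 in wild-type cells, and that of the IRF list was -0.24 in Tet2-deficient and -0.34 in wild-type cells.

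Relatives of Maf and Rora were few. None of 5 other Maf family genes was called in either genotype, Maff having -0.25 ± 0.14 in Tet2-deficient and 0.28 ± 0.14 in wild-type cells and Nrl 0.05 ± 0.12 in Tet2-deficient and 0.09 ± 0.12 in wild-type cells. Maff and Nrl lay under the array median on every array. The list of 4 ROR and Rev-erb genes held 3 measured receptor genes (Rorb, Nr1d1 and Nr1d2), none called higher, and their target Arntl, a clock gene that ROR proteins drive and Rev-erb proteins repress. Arntl was called higher in both genotypes (1.80 ± 0.17 in Tet2-deficient and 1.87 ± 0.17 in wild-type cells), and lay under the array median on all 4 Th1 arrays. Rorb was called lower in wild-type cells (-0.07 ± 0.11 in Tet2-deficient and -0.48 ± 0.11 in wild-type cells), but lay under the array median on every array, and that call was lost without replicate 2 of the wild-type Th17 or replicate 1 of the wild-type Th1 arrays.

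Of 7 measured Ahr pathway genes, 3 were called higher in Tet2-deficient cells and 1 in wild-type cells, with medians of 0.38 in Tet2-deficient and 0.20 in wild-type cells. Cyp1a1, Cyp1b1 and Nqo1 were not called in either genotype and lay under the array median on every array. In Tet2-deficient cells they had 0.38 (limma adjusted p = 0.208), 0.32 (0.122) and -0.03 (0.911). Il22 was listed too but was not among the measured genes. Ahrr, a repressor of Ahr that Ahr itself induces, had 0.74 ± 0.15 in Tet2-deficient and 0.83 ± 0.15 in wild-type cells at signals under the array median on every array. Arnt, the dimer partner of Ahr and Hif1a, had 0.58 ± 0.13 in Tet2-deficient and 0.26 ± 0.13 in wild-type cells, called in Tet2-deficient cells, and was named after its values were seen. So was Tiparp, an Ahr-induced gene, which read 8.59 and 8.32 in Tet2-deficient Th17 cells and 7.74 and 7.94 in wild-type Th17 cells, against 7.33 and 7.35 in Tet2-deficient Th1 cells and 7.34 and 7.47 in wild-type Th1 cells. Its subset difference was 1.11 ± 0.13 in Tet2-deficient (limma adjusted p = 0.000183) and 0.44 ± 0.13 in wild-type cells (0.0573), and in Th17 cells it was 0.61 ± 0.13 higher in Tet2-deficient than in wild-type cells, which did not pass (limma adjusted p = 0.582). The difference of the Tet2 effect between subsets, 0.68 ± 0.18, did not pass either (0.999). Without Tet2-deficient Th17 replicate 1 or Th1 replicate 1 the count of called Ahr pathway genes in Tet2-deficient cells was 1, and without wild-type Th17 replicate 2 the count in wild-type cells was 0.

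Hif1a messenger RNA was not called. Of 17 measured HIF-1 targets, 6 were called higher in each genotype, where 6.32% of all genes were in Tet2-deficient and 4.97% in wild-type cells. In Tet2-deficient cells 3 were called lower and 8 were not called, and in wild-type cells 2 and 9. The medians were 0.14 in Tet2-deficient and 0.17 in wild-type cells. Those not called in Tet2-deficient cells included Slc2a1 (0.03), Ldha (0.03), Pgk1 (0.14) and Vegfa (0.13), named after their values were seen. Whether HIF-1 activity differed between subsets was not tested. The higher ones included the glycolytic enzyme gene Pfkl (1.09 ± 0.14 in Tet2-deficient and 0.96 ± 0.14 in wild-type cells), P4ha1, a subunit of collagen prolyl hydroxylase (0.95 ± 0.12 in Tet2-deficient and 0.83 ± 0.12 in wild-type cells), and Pdk1, a kinase that holds pyruvate back from the mitochondria (1.22 ± 0.15 in Tet2-deficient and 0.75 ± 0.15 in wild-type cells). The lower ones included hexokinase 2, encoded by Hk2 (-0.55 ± 0.13 in Tet2-deficient and -0.47 ± 0.13 in wild-type cells), and the carbonic anhydrase gene Car9 (-0.47 ± 0.10 in Tet2-deficient and -0.36 ± 0.10 in wild-type cells). Car9 lay under the array median on every array. The higher calls in wild-type cells numbered 3 without either wild-type Th17 replicate. The count of lower calls was 0 in both genotypes with the female RNA share as a covariate, without either Tet2-deficient Th17 replicate or without Tet2-deficient Th1 replicate 1, and in wild-type cells it was 0 to 1 with any 1 array left out. The wild-type calls of Hk2 and Car9 ended under 13 and 16 of the 19 alternatives. Of 8 HIF regulators, 2 were called higher and 1 lower in Tet2-deficient cells and 1 higher in wild-type cells. Egln1, an oxygen-sensing hydroxylase, had 0.56 ± 0.14 in Tet2-deficient and 0.48 ± 0.14 in wild-type cells, with limma adjusted p of 0.0214 in Tet2-deficient and 0.0496 in wild-type cells. The wild-type call of Egln1 ended under 14 of the 19 alternatives. The counts of called HIF regulators were 0 in both genotypes with the female RNA share as a covariate and without either Tet2-deficient Th17 replicate.

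Of 9 measured NF-kappaB and I-kappaB genes, 0 were called higher, and 3 were called lower in Tet2-deficient and 2 in wild-type cells, with medians of -0.35 in Tet2-deficient and -0.18 in wild-type cells. Nfkb2, which encodes the p100 subunit precursor, had -0.96 ± 0.13 in Tet2-deficient and -0.76 ± 0.13 in wild-type cells. Nfkbie, an inhibitor of NF-kappaB, had -0.62 ± 0.15 in Tet2-deficient and -0.54 ± 0.15 in wild-type cells, and its wild-type call (limma adjusted p = 0.0490) ended under 12 of 19 alternatives. The count of lower calls in Tet2-deficient cells was 1 without Th17 replicate 2 or Th1 replicate 1.

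Of 11 measured Th17 effector genes on which these factors are known to act, 8 were called higher in both genotypes and 0 lower, with medians of 0.89 in Tet2-deficient and 1.29 in wild-type cells. The interleukin-23 receptor gene Il23r had 4.20 ± 0.15 in Tet2-deficient and 4.53 ± 0.15 in wild-type cells, Il17f 4.10 ± 0.16 in Tet2-deficient and 4.20 ± 0.16 in wild-type cells, and Il17a 3.07 ± 0.16 in Tet2-deficient and 3.78 ± 0.16 in wild-type cells. Il23r and Il17a lay under the array median on all 4 Th1 arrays. No gene of the 10 lists was called between Tet2-deficient and wild-type cells in either subset.

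**Figure D4:**
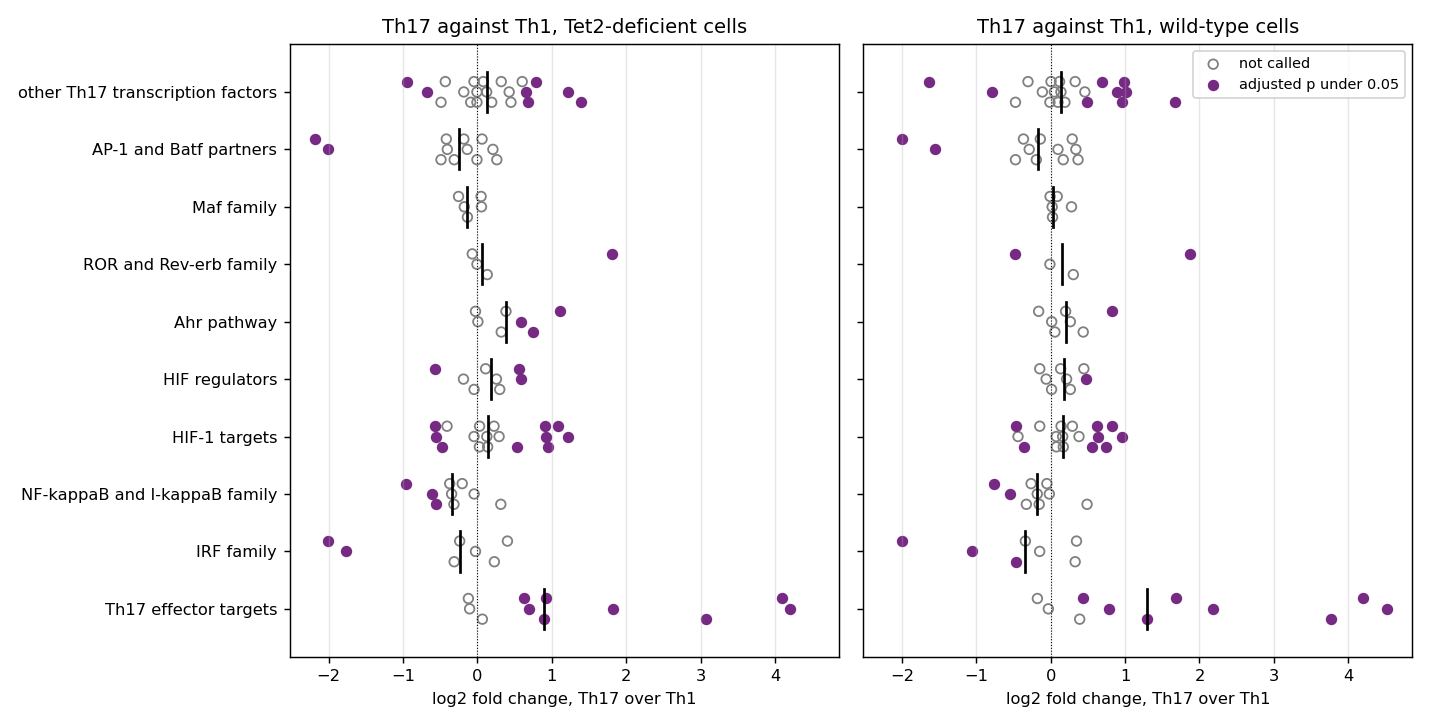
Log2 fold change, Th17 over Th1, of every measured gene of the 10 lists in Tet2-deficient cells (left) and wild-type cells (right), with filled points for called genes and a bar for each list's median. The effector genes reach furthest right, and the AP-1, NF-kappaB and IRF lists hold called genes only on the left.

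The genes whose signals were most like each member's were found by Pearson's r over the 8 arrays among 9627 genes with a mean at or over the median, as a description in which the arrays share the subset split. For Maf they were Tasp1 (0.998), Cpd (0.997) and Il17f (0.996), for Rora Pde3b (0.998), Ssh2 (0.997) and Wwp1 (0.996), and for Ahr Arhgap18 (0.993), Rassf2 (0.992) and Selenop (0.992). For Batf3 they were Aida (0.992), Fam241a (0.977) and Pdcd1lg2 (0.973), the gene of the checkpoint ligand PD-L2. The members that were not called between subsets were followed by Aim2 (0.983), Nop53 (0.961) and Dus1l (0.961) for Batf, by Zfand2b (0.947), Ttc19 (0.943) and Zswim8 (0.937) for Irf4, by Mysm1 (0.992), Mettl4 (0.987) and Faim (0.983) for Hif1a, and by Srsf6 (0.986), Dhx33 (0.971) and Casc3 (0.955) for Nfkbiz. In RefSeq GRCm38.p6, Maf lies on chromosome 8 at 115703253 to 115706894, Rora on chromosome 9 at 68653404 to 69388246, Ahr on chromosome 12 at 35497979 to 35534989 and Nfkbiz on chromosome 16 at 55811375 to 55838954. Batf lies on chromosome 12 at 85686720 to 85709087, Hif1a on chromosome 12 at 73901324 to 73947554, Batf3 on chromosome 1 at 191098414 to 191108943 and Irf4 on chromosome 13 at 30749233 to 30766981.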

How the data were processed

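The authors deposited log2 signals per probe set of an Affymetrix array for 8 samples, and the submitters' processing notes list RMA, GCOS and Affymetrix Expression Console with no order or version. Total RNA was extracted with Trizol and biotin-labelled, per the labels' protocols. The genome build of the probes is not given in the sources used here. The values were used as deposited, without further scaling or filter. Of 35556 probe sets, 21789 carried 1 symbol in the platform annotation of 2016, 1621 several and 12146 none, and 21698 of the single-symbol ones matched RefSeq GRCm38.p6 by gene ID. The probe set with the highest mean was kept for each of 19938 genes (999 had several).

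The model was fitted in limma 3.58.1 (R 4.3.3) on 4 group means with eBayes and an intensity trend (4 residual and 8.32 prior degrees of freedom). Two-sided p-values were adjusted by Benjamini-Hochberg over all genes of each of 6 contrasts, which are the subset difference in each genotype, the genotype difference in each subset, and the mean and the difference of the genotype effects. Intervals are 95% moderated intervals. Array signals have no depth, so precision rests on how many arrays there are. Replicate numbers were not used to pair the samples in the main fit, since the labels do not say what they mark. The share of female RNA took the array with the highest Xist signal as 100%, after the mean Xist signal of the Th1 arrays was subtracted as the baseline. Alternatives were a replicate block, other normalizations, filters and probe-set rules, other eBayes options, array weights, the female share as a covariate and each array left out.

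The members and lists were chosen with earlier results of these data known. Genes named from a list were the up to 3 called genes with the largest fold each way in wild-type cells, or the 2 largest where none was called, and exceptions are stated. The 3 genes most like each member were named, predicted genes apart.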

Additional observations from a re-analysis of the deposited data

How the results depend on the processing

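The subset calls of Maf, Rora and Ahr were made in both genotypes under all 19 alternatives, and no member was called for genotype under any. Leaving out 1 array at a time gave log2 fold changes in Tet2-deficient and wild-type cells of 3.12 to 3.92 and 3.40 to 3.94 for Maf, 2.29 to 2.52 and 2.01 to 2.26 for Rora, and 1.80 to 1.91 and 1.41 to 1.90 for Ahr. Called members numbered 3 to 4 in Tet2-deficient and 4 to 5 in wild-type cells. With a replicate block 4 members were called in each genotype, beside 1767 and 1398 genes in all, and it changed no member's call. The labels do not say what same-numbered arrays share. The correlation of their deviations was -0.186 to 0.0613, which cannot show whether they shared a mouse, litter or day. Counts over all genes depended more on the setting. In Tet2-deficient cells they were 2015 as reported, 1001 over all probe sets, 726 with the female RNA share as a covariate and 801 (without Th17 replicate 1) to 2335 without 1 array. In wild-type cells they were 1675 as reported, 599 over all probe sets, 1101 on the compared arrays alone and 663 (without Th17 replicate 2) to 1551 without 1 array. For genotype, leaving out 1 array gave 0 to 4 called genes in Th17 cells, 0 to 2 in Th1 cells, 0 to 5 for the mean and 0 to 4 for the difference of the effects. The higher calls were 62.5% of the calls in Tet2-deficient and 59.1% in wild-type cells, against 72.6% and 68.4% with each array centred on its median, and 72.1% and 73.2% without genes under the median level. Over all probe sets, higher calls numbered 5 among the effector genes in Tet2-deficient cells, and 4 among the other Th17 factors and 3 among the HIF-1 targets in wild-type cells. With quantile normalization applied again, 4 AP-1 genes were called lower in each genotype. The cause of these shifts was not tested. In Th17 cells genotype differences as large as 1.25 (Klrd1) did not pass with 2 arrays a group.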

Other observations

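On the log2 scale, Maf replicates differed by 0.801 in Tet2-deficient Th17 cells (median over all genes 0.110), 0.544 in wild-type Th17 cells (0.122), 0.411 in Tet2-deficient Th1 cells (0.121) and 0.0972 in wild-type Th1 cells (0.145). Ly6g was called higher in Th17 than in Th1 cells in Tet2-deficient (1.63 ± 0.17, limma adjusted p = 7.25e-05) and wild-type cells (0.81 ± 0.17, limma adjusted p = 0.0111). Klrd1 was called in Tet2-deficient cells (1.73 ± 0.20, limma adjusted p = 0.000207) and not in wild-type cells (0.59 ± 0.20, limma adjusted p = 0.0969). The other neutrophil markers read lower in Th17 than in Th1 cells without passing, S100a8 by -0.33 in Tet2-deficient and -0.24 in wild-type cells and S100a9 by -0.14 in Tet2-deficient and -0.15 in wild-type cells. The other natural killer markers did not pass either, with Ncr1 at 0.11 in Tet2-deficient and -0.42 in wild-type cells and Klrb1c at 0.11 in Tet2-deficient and -0.20 in wild-type cells.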
